A study of Mus musculus with 9 samples.

Results

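Granule-rich granulocyte columns are the subject here: profiles of the blood granulocyte class in which 3 secondary granule genes, Ngp, Camp and Ltf, together made up 2% or more of the signal left after hemoglobin was removed. The members were thus chosen by the measured values of those 3 genes. Of 1905 granulocyte columns, 1047 (55.0%) met that rule, out of 4310 columns of blood cells in all. Blood came from 5 arthritic and 4 healthy female 129SvE mice (the labels call the arthritic mice sick, with rheumatoid arthritis), and was read out by Seq-Well, which captures cells with barcoded beads in small wells and reads transcripts from their polyA tails. The labels grade disease as stage 1.5 in arthritic mice 1 and 4, stage 2 in mouse 3, stage 1.5 to 2 in mouse 5, stage 2 to 2.5 in mouse 6, and stage 0 in the healthy mice. They name the tissue as PBMC and as blood, and name no genotype, inducing agent or age.

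A neutrophil fills its granules in a fixed order while it matures in the bone marrow. Proteases of the primary (azurophil) granules, such as elastase and myeloperoxidase, are transcribed first, in promyelocytes. Antimicrobial proteins of the secondary (specific) granules, such as lactoferrin and cathelicidin, follow in myelocytes and metamyelocytes under the transcription factor C/EBP epsilon, and genes of the tertiary granules and the receptors of circulating cells come last. Mature blood neutrophils keep the proteins but transcribe few of the secondary granule genes, so that these transcripts in blood are commonly used as a sign of young neutrophils.

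The promoters of the genes that chose or led these columns are shown because the genes moved together and a C/EBP-type motif can be read in some of them. Each line gives 250 bases before and 50 bases after the gene start on the strand of the gene, from RefSeq on build GRCm38.p6. Capitals mark every match to TTNNGCAA on either strand. The windows are chr9:110419558-110419857 on the plus strand for Ngp, chr9:111019042-111019341 on the plus strand for Ltf, chr2:32387690-32387989 on the minus strand for Lcn2, chr2:28084829-28085128 on the minus strand for Fcnb and chr9:109849407-109849706 on the minus strand for Camp.
Ngp: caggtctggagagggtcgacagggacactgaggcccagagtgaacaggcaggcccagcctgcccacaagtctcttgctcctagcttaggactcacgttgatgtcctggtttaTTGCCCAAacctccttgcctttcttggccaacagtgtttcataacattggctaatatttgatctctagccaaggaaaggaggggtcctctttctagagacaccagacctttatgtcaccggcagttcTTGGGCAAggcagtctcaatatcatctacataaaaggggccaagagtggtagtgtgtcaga
Ltf: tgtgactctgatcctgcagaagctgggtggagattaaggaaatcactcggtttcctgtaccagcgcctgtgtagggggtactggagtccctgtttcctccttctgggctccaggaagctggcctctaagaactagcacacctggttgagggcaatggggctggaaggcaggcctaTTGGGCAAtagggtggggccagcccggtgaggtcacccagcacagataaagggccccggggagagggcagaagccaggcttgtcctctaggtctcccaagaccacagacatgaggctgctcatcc
Lcn2: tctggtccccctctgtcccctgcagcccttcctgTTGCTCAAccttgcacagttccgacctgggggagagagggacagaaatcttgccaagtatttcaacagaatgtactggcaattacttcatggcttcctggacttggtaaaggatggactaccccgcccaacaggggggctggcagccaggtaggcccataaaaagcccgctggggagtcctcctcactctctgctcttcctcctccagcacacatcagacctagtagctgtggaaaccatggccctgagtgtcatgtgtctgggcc
Fcnb: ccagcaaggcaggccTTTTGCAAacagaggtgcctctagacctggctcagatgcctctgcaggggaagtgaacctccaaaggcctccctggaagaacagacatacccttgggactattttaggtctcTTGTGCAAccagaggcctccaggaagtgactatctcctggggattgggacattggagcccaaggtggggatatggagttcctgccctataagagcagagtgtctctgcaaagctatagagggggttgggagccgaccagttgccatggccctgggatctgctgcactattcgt
Camp: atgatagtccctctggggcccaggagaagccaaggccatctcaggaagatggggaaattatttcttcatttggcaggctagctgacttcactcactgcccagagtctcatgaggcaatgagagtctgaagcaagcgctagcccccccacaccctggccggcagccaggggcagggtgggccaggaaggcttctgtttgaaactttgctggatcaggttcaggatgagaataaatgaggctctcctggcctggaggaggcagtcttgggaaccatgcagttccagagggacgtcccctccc
The motif matched 2 times in the Ngp promoter (138 and 11 bases before the gene start), 1 time in that of Ltf, 1 time in that of Lcn2 and 2 times in that of Fcnb. The letters were not found in the Camp window, nor in those of Cd177, Chil3 and S100a8. Among 32851 mouse promoters of this length 10.8% held the motif, and among 6399 of genes compared between granule-rich and other granulocyte columns 10.2% did. The motif was found in 17 of 84 promoters (20.2%) of genes higher in the granule-rich than in the other granulocyte columns and in 29 of 318 promoters (9.12%) of genes lower there. Of 113 genes called higher, 84 had a promoter window. Ngp, Ltf, Lcn2 and Fcnb, shown above, were called higher. The columns were sorted on Ngp, Camp and Ltf, so nothing is read from these shares. A match describes the letters in a window and does not show a bound site. Ngp, Camp and Ltf all lie on chromosome 9 (GENCODE M21 on build GRCm38), at chr9:110419747-110423012, chr9:109847379-109849617 and chr9:111019271-111042767.

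Columns were not independent of each other, which bears on every value below. Of the 1047 granule-rich columns, 403 (38.5%) held exactly the same values as another column, leaving 780 distinct profiles, and 212 (20.2%) were identical to a column of another mouse. Arthritic mice 1 and 3 shared 45 of these profiles, and arthritic mice 4 and 5 shared 15. Only 2 barcodes of granule-rich columns also occurred in another mouse, so most copies carried different barcodes. The nearest distinct granule-rich column lay at a median chi-square of 0.362 per degree of freedom, below 1 for 92.2% of profiles. For 45.1% of the profiles that nearest neighbour belonged to another mouse. Columns were read as pooled signal of similar cells, and only mice were treated as replicates.

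Granule-rich columns came almost entirely from arthritic mice. Arthritic mice 1, 3, 4, 5 and 6 held 372, 245, 139, 259 and 29 of them, 1044 in all, and the healthy mice held 3, all in healthy mouse 2. In arthritic mouse 1 they were 372 of 489 granulocyte columns (76.1%, exact 95% interval 72.0 to 79.8), and in arthritic mouse 3 they were 245 of 323 (75.9%). The share was 139 of 360 (38.6%) in arthritic mouse 4 and 259 of 435 (59.5%) in arthritic mouse 5. In arthritic mouse 6, with the highest stage, it was 29 of 249 (11.6%, exact interval 7.94 to 16.3), the lowest of the arthritic mice. Healthy mouse 2 held 3 of 5 (60.0%, exact interval 14.7 to 94.7). Healthy mice 1, 3 and 4 held 0 of 13, 0 of 11 and 0 of 20, which allows shares of up to 23.1%, 27.3% and 15%. These intervals and limits cover counting error only, and identical columns make them too narrow.

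Over mice, granule-rich columns made up 52.3% ± 27.4 of granulocyte columns in arthritic mice and 15% ± 30 in healthy mice (SD, n = 5 and 4). The difference of 37.3 percentage points did not pass a two-sided exact permutation test over mice (p = 0.0952, adjusted p = 0.143 over 3 measures). Of all blood columns they made up 36.2%, 25.4%, 19.3%, 51.6% and 3.65% in arthritic mice 1, 3, 4, 5 and 6, against 0%, 1.49%, 0% and 0% in healthy mice 1 to 4. The arthritic mice all lay above the healthy mice here (27.2% ± 18.0 and 0.373% ± 0.746, exact permutation p = 0.0159, adjusted p = 0.0476). That adjusted p was between 0.0804 and 0.161 when any 1 mouse was left out. The smallest raw p possible is then 0.0286 or 0.0179, so over 3 measures this one could pass only together with another. Leaving out a mouse thus cannot decide whether the result rests on that mouse. The median granule share of a mouse's granulocyte columns averaged 3.61% ± 3.48 in arthritic and 0.979% ± 1.50 in healthy mice (exact permutation p = 0.246, adjusted p = 0.246). Each arthritic mouse gave 249 to 489 granulocyte columns and each healthy mouse 5 to 20, so the healthy shares rest on little material. Arthritic mice 1, 3 and 4 gave 1027, 964 and 721 blood columns, of which 489, 323 and 360 were granulocyte columns. Arthritic mice 5 and 6 gave 502 and 794, of which 435 and 249 were. Healthy mice 1 to 4 gave 30, 201, 26 and 45 blood columns, with 13, 5, 11 and 20 in the granulocyte class. The share of all blood columns thus also depends on how many columns of each class a mouse gave, whose part was not tested.

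**Figure D1:**
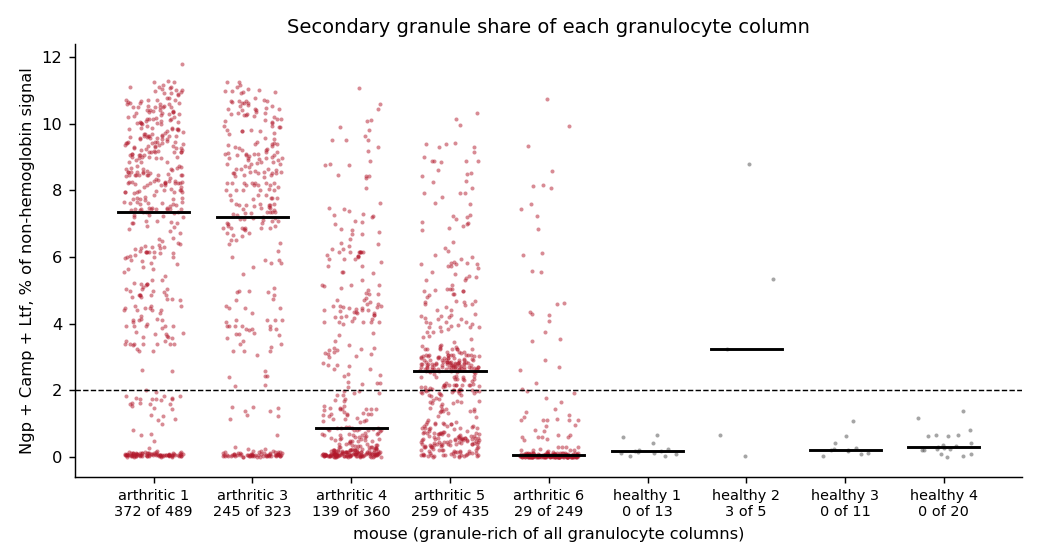
Share of Ngp, Camp and Ltf in non-hemoglobin signal (percent, vertical axis) for each granulocyte column of 9 mice (horizontal axis, with granule-rich columns of all granulocyte columns); bars are medians and the dashed line is the threshold of 2%. The medians of arthritic mice 1 and 3 are 7.36% and 7.21%, that of arthritic mouse 6 is 0.0480%, and 3 columns of healthy mouse 2 exceed the line.

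The distribution of the granule share along the columns differed between mice. Its median over all granulocyte columns was 7.36%, 7.21%, 0.858%, 2.58% and 0.0480% in arthritic mice 1, 3, 4, 5 and 6, against 0.169%, 3.23%, 0.214% and 0.303% in healthy mice 1 to 4. Within the granule-rich columns the medians were 8.25%, 8.17%, 5.07%, 3.04% and 5.55% in the arthritic mice, and the highest column reached 11.8%. No gap lay at the threshold: 50 columns had 2% to under 2.5% and 64 had 1.5% to under 2%. The members just inside had 2.003% (in arthritic mice 1 and 5) and the columns just outside 1.995% (in arthritic mouse 5). In the other deposited classes 3 of 1301 B cell columns reached the threshold (highest 2.25%), and none did in the common myeloid progenitor, myeloid dendritic or T cell columns. In such pooled sums, fewer cells of a type and less RNA per cell cannot be told apart.

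The columns carried the markers of neutrophils. Besides Ngp, Camp and Ltf, which chose the columns, all 10 other neutrophil markers listed were detected. These 10 together made up 200800 to 341300 SPM (signal per 1000000 of non-hemoglobin signal) in the granule-rich columns of the 5 arthritic mice, against 24790 to 60920 SPM in the other granulocyte columns, a description since the same columns were sorted. Most of that sum in granule-rich columns was S100a8 and S100a9. Of all 13 markers 8 were called higher by the rule given below and none lower. Csf3r, Cxcr2, Mmp8, Mmp9 and Retnlg were not called. The subunits of calprotectin, S100a8 and S100a9, were a median 35.1%, 36.0%, 23.2%, 17.9% and 27.0% of a granule-rich column in arthritic mice 1, 3, 4, 5 and 6, against 0.683%, 0.575%, 2.64%, 4.31% and 0.756% in the other granulocyte columns. Markers of other cells were low but present in the granule-rich columns: their sums were 817 to 1286 SPM for 13 monocyte, 538 to 1749 SPM for 12 B cell, 156 to 451 SPM for 14 T cell and 209 to 2865 SPM for 8 eosinophil markers. Erythroid markers ranged from 197 to 8593 SPM, highest in arthritic mouse 5, and Vsig4 (macrophages) and Gp6 (platelets) were at 0. Their total signal per column had medians of 11956, 11861, 14027, 19159 and 10052 in arthritic mice 1, 3, 4, 5 and 6, against 9519, 10524, 11556, 16490 and 8712 in the other granulocyte columns, and was the higher one in each mouse.

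Levels of the rule's own genes are given as a description. Ngp (neutrophilic granule protein) had 36427, 35778, 26202, 19373 and 26752 SPM in the granule-rich columns of arthritic mice 1, 3, 4, 5 and 6, against 2289.7, 1221, 2088, 3548 and 931 SPM in their other granulocyte columns. Camp (cathelicidin, an antimicrobial peptide) averaged 24956 ± 6265 SPM in granule-rich and 1805 ± 1203 SPM in other columns (SD, n = 5 mice), and Ltf (lactoferrin, which binds iron) 7571 ± 1987 and 464 ± 244 SPM. The ratio of Ngp to Camp signal stayed between 0.997 and 1.39 in the granule-rich columns of the arthritic mice. Arthritic mice 1 and 3 had the highest and mouse 5 the lowest levels of Ngp and Ltf. In the 3 granule-rich columns of healthy mouse 2, pooled, Ngp had 27410 SPM, Camp 22640 SPM and Ltf 8638 SPM, within the range of the arthritic mice.

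The other marker genes followed them. Lcn2 (lipocalin 2, which captures bacterial siderophores) had 4043, 3923, 2806, 1937 and 2969 SPM in the granule-rich columns of arthritic mice 1, 3, 4, 5 and 6, against 385, 209.7, 303, 425 and 118 SPM in the other columns. Cd177, a neutrophil surface protein, had 1029, 1014, 694, 509.8 and 814 SPM in granule-rich columns, against 111, 79.3, 85.4, 96.0 and 87.7 SPM in the others. For both genes the lowest granule-rich value lay above the highest other value. In the common myeloid progenitor columns of the same blood Lcn2 averaged 100.1 SPM and Cd177 17.2 SPM (4 mice), and in B cell columns 36.4 and 5.10 SPM (5 mice).

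Across all genes, the granule-rich and the other granulocyte columns were compared within each of the 5 arthritic mice, each of which had at least 20 columns of both kinds. A gene was called where it differed by 1 or more on the log2 scale in the same direction in all 5 mice, with no test, since the columns had been sorted on these values. Of 9813 genes compared, 113 were called higher (1.15%) and 547 lower (5.57%), and nothing is read from these shares. The median gene differed by -0.71 on the log2 scale. With TMM factors, which centre the bulk of genes, that median was -0.05 and the calls were 275 higher and 149 lower of 9435 genes. Without arthritic mouse 5, whose other columns had the most granule signal, 166 were higher and 1287 lower. The differences below are on the scale of non-hemoglobin signal.

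Genes of granules and of neutrophil maturation made up most of the named genes that were higher in granule-rich columns. Of 17 secondary granule genes compared, 10 were called higher and none lower, with a median log2 difference of 2.77 beside -0.71 for all genes. With TMM factors 14 of the 17 were called higher, beside 275 of all 9435 genes. The 10 were Ltf, Ngp, Camp, Lcn2, Cd177, Chil3, Fcnb, Olfm4, Pglyrp1 and Orm1, of which Ngp, Camp and Ltf had served to choose the columns. Chil3, a chitinase-like secreted protein, had 4099.5, 4174, 2401, 1646 and 1924 SPM in granule-rich columns of arthritic mice 1, 3, 4, 5 and 6, against 475, 576, 352, 372 and 402 SPM in other columns. Fcnb (ficolin B, a lectin of the complement system) had 2677, 2726, 1267, 999 and 822 SPM against 277, 152, 247, 469 and 96.4 SPM. In both genes mice 1 and 3 were high and the groups did not overlap. Olfm4, which marks a subset of neutrophils, averaged 61.9 ± 13.3 SPM in granule-rich and 6.99 ± 2.58 SPM in other columns.

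The list of 24 immature neutrophil genes had 14 called higher and none lower (median 2.12), and 17 were called higher with TMM factors. Cebpe, the transcription factor that drives secondary granule genes, had 455, 465, 192, 212 and 175 SPM in granule-rich columns of arthritic mice 1, 3, 4, 5 and 6, against 57.7, 23.9, 35.2, 54.6 and 14.3 SPM in the others. Anxa1, an anti-inflammatory phospholipid-binding protein, averaged 3409 ± 828 SPM against 593 ± 70.7 SPM. Ly6g, the surface antigen used to stain mouse neutrophils, averaged 170.5 ± 43.0 SPM against 33.8 ± 9.35 SPM, and Padi4, the enzyme that citrullinates histones in extracellular traps, 87.8 ± 16.9 SPM against 17 ± 6.48 SPM. Every one of these genes was higher in all 5 mice than in all other granulocyte columns. Cebpa, the factor of earlier myeloid progenitors, was called lower (8.56 ± 5.07 SPM in granule-rich and 40.9 ± 22.7 SPM in other columns), a call that TMM factors did not give.

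Of the alarmins, S100a8 had 219130, 235210, 157100, 135940 and 180250 SPM in granule-rich columns of arthritic mice 1, 3, 4, 5 and 6, against 32731, 19239, 31725, 40725 and 15646 SPM in other columns. S100a9 averaged 77134 ± 18019 SPM and 11413 ± 3884 SPM. The lowest granule-rich value of S100a8 lay above the highest of the other columns. Wfdc21, a secreted protein of the WFDC family, averaged 5333 ± 1169 SPM against 750.2 ± 281 SPM. Also named by size were Inhba, a subunit of activin (133 ± 38.4 SPM against 10.3 ± 5.23 SPM), and Syne1, a nuclear envelope protein (628 ± 124 SPM against 105 ± 40.6 SPM). Adpgk, an ADP-dependent glucokinase, had 333 ± 57.3 SPM against 46.4 ± 20.7 SPM. Ly75 (an endocytic receptor of the lectin type), Tex15 (a germ cell protein), Ppp1r42 and AA467197 completed the 15 with the largest differences, with median log2 differences of 3.04, 3.15, 3.71 and 3.67. Of these genes Wfdc21, Syne1, Adpgk and AA467197 belong to the immature neutrophil list above.

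**Figure D2:**
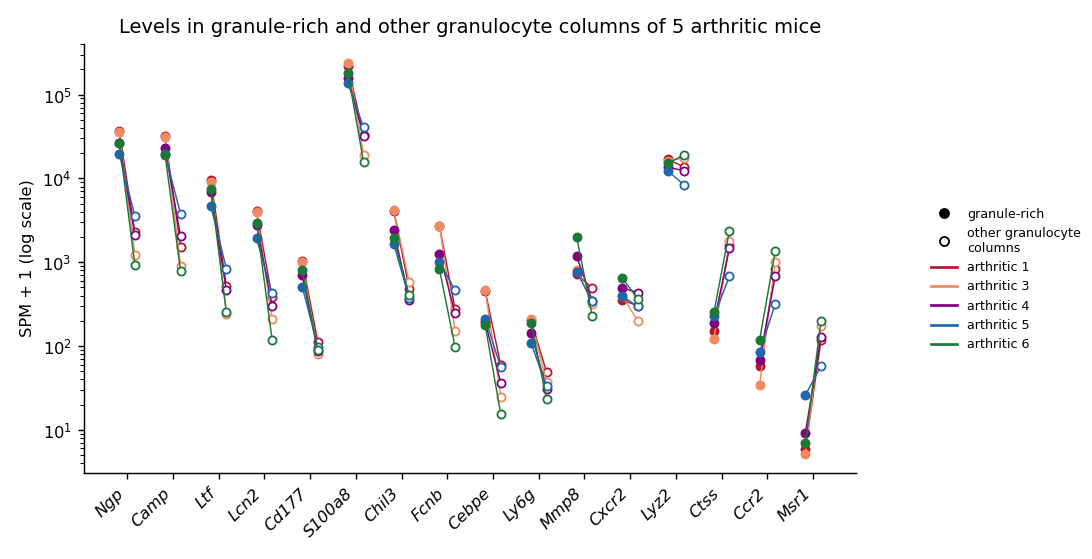
Level of 16 genes (signal per 1000000 of non-hemoglobin signal plus 1, log scale) in granule-rich columns (filled, left) and other granulocyte columns (open, right) of each of 5 arthritic mice, joined by mouse. Granule and maturation genes are higher in granule-rich columns in every mouse, Lyz2 overlaps between the 2 kinds of columns, and Ctss, Ccr2 and Msr1 are lower in granule-rich columns.

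Genes of circulating neutrophils differed less. Of 22 mature surface receptor genes, 1 was called higher, Fpr2, a formyl peptide receptor (286 ± 78.2 SPM in granule-rich and 48.5 ± 20.3 SPM in other columns), and none lower. Cxcr2, the chemokine receptor that draws neutrophils out of the marrow, had 357, 391, 493, 390.4 and 641 SPM in granule-rich columns, against 298, 197, 433, 296 and 364 SPM in other columns of the same mice. Csf3r, the G-CSF receptor, had 54.8, 49.8, 89.8, 89.3 and 74.2 SPM against 65.4, 78.2, 133, 66.3 and 139 SPM. The Cxcr2 differences were all positive but under 1 on the log2 scale, and those of Csf3r had both signs. In the tertiary granule list 1 of 7 genes was called higher, the protease Mmp25, and Mmp9 (gelatinase) averaged 316 ± 99.2 SPM against 100.2 ± 33.0 SPM without passing in every mouse. None of 7 NADPH oxidase genes was called, with a median of 0.85, and 3 were called higher with TMM factors. Cybb, the catalytic subunit, had 1914, 1649, 1457, 967 and 1526 SPM in granule-rich columns and 896, 1056, 809, 517 and 1512 SPM in other columns, so that mouse 6 showed almost no difference.

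The primary granule list had 1 of 11 genes called higher, Serpinb1a, an inhibitor of neutrophil serine proteases (837 ± 277 SPM against 196 ± 79.1 SPM), and 1 called lower, Ctsc, the protease that activates those enzymes (with TMM factors only Serpinb1a was called). Elane (elastase) had 544, 466, 252, 394 and 116 SPM in granule-rich columns, against 1223, 539, 626, 923 and 113 SPM in other columns. Mpo (myeloperoxidase) averaged 255 ± 71.5 SPM against 657 ± 468 SPM. Both were lower in mice 1, 3, 4 and 5 and not in mouse 6, and neither was called. In the common myeloid progenitor columns Elane averaged 915 SPM and Mpo 876 SPM. None of 28 cell cycle genes was called, with a median of -0.49 beside -0.71 for all genes. The proliferation gene Mki67 averaged 896 ± 586 SPM in granule-rich and 1360 ± 1245 SPM in other granulocyte columns, against 3608 SPM in common myeloid progenitor columns.

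Monocyte genes stood out among those lower in granule-rich columns. Of 12 monocyte markers compared, 10 were called lower and none higher (median -3.13), and 9 were called lower with TMM factors. Ccr2, the receptor that brings monocytes out of the marrow, had 57.0, 33.6, 66.8, 83.5 and 119 SPM in granule-rich columns of arthritic mice 1, 3, 4, 5 and 6, against 833, 1002, 683, 318 and 1350 SPM in other columns. Msr1 (a scavenger receptor), Cx3cr1 (the fractalkine receptor), Ctss (cathepsin S), Fn1 (fibronectin) and Ccl2 (a monocyte chemokine) were also among the 15 lower genes of the largest size. Monocyte markers summed to a median of 736.7, 756, 819.8, 792.5 and 915.5 SPM in the granule-rich columns of arthritic mice 1, 3, 4, 5 and 6, against 6920, 7222, 2307, 1150 and 7375 SPM in the other granulocyte columns. At least 2000 SPM was reached by 34 of the granule-rich columns (3.25%) and by 537 of the 858 other columns (62.6%).

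The differences were computed again against the other granulocyte columns under 2000 SPM of monocyte markers, a value chosen after seeing the data. There were 31, 11, 106, 125 and 25 such columns in arthritic mice 1, 3, 4, 5 and 6. Of 9578 genes, 74 were called higher (0.773%) and 176 lower (1.84%). Of the higher genes 43 were shared with the comparison against all other columns, which is 58.1% of the 74 and 38.1% of the 113. Of the lower genes 58 were shared, 33.0% of the 176 and 10.6% of the 547. Again 10 of 17 secondary granule genes were higher, now with Cybb and Lyz2 (lysozyme) in place of Olfm4 and Pglyrp1. Of the 24 immature neutrophil genes 7 were higher, among them Cebpe, Anxa1, Syne1 and Wfdc21. Ly6g and Padi4 were not called, nor was Cebpa. Padi4 was lower in granule-rich columns of arthritic mouse 3 (74.1 against 96.7 SPM) and higher in those of mice 1, 4, 5 and 6. None of the monocyte markers was called, and Ccr2 averaged 71.9 ± 31.8 SPM in granule-rich and 99.1 ± 51.3 SPM in monocyte-poor other columns. The monocyte-poor columns were kept by the sum of these same markers, so nothing is read from that. Granule-rich columns were not filtered in this way.

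Against the same monocyte-poor columns, none of the 22 mature surface receptor genes was called in either direction, with a median of -0.16 beside -0.50 for all genes. Fpr2 was higher in all 5 mice (286 ± 78.2 SPM in granule-rich and 143 ± 78.2 SPM in monocyte-poor other columns), but by under 1 on the log2 scale in mice 1 and 3. Cxcr2, Retnlg and Il1b are given as examples chosen after their values were seen. Retnlg, a resistin-like secreted protein, had 2007, 2579, 5673, 5161 and 6396 SPM in granule-rich columns of arthritic mice 1, 3, 4, 5 and 6, against 6601, 7796, 3776, 3588 and 4440 SPM in monocyte-poor other columns. It was lower in granule-rich columns of mice 1 and 3 and higher in mice 4, 5 and 6. Cxcr2 averaged 454 ± 116 SPM and 740 ± 323 SPM, and was lower in granule-rich columns of every mouse but mouse 5. Il1b, the inflammatory cytokine, had 113, 119, 275, 201 and 336 SPM in granule-rich columns and 513, 1679, 784, 268 and 1795 SPM in monocyte-poor other columns, lower in all 5 mice but by under 1 on the log2 scale in mouse 5. Mouse 3 rests on 11 other columns there.

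**Figure D3:**
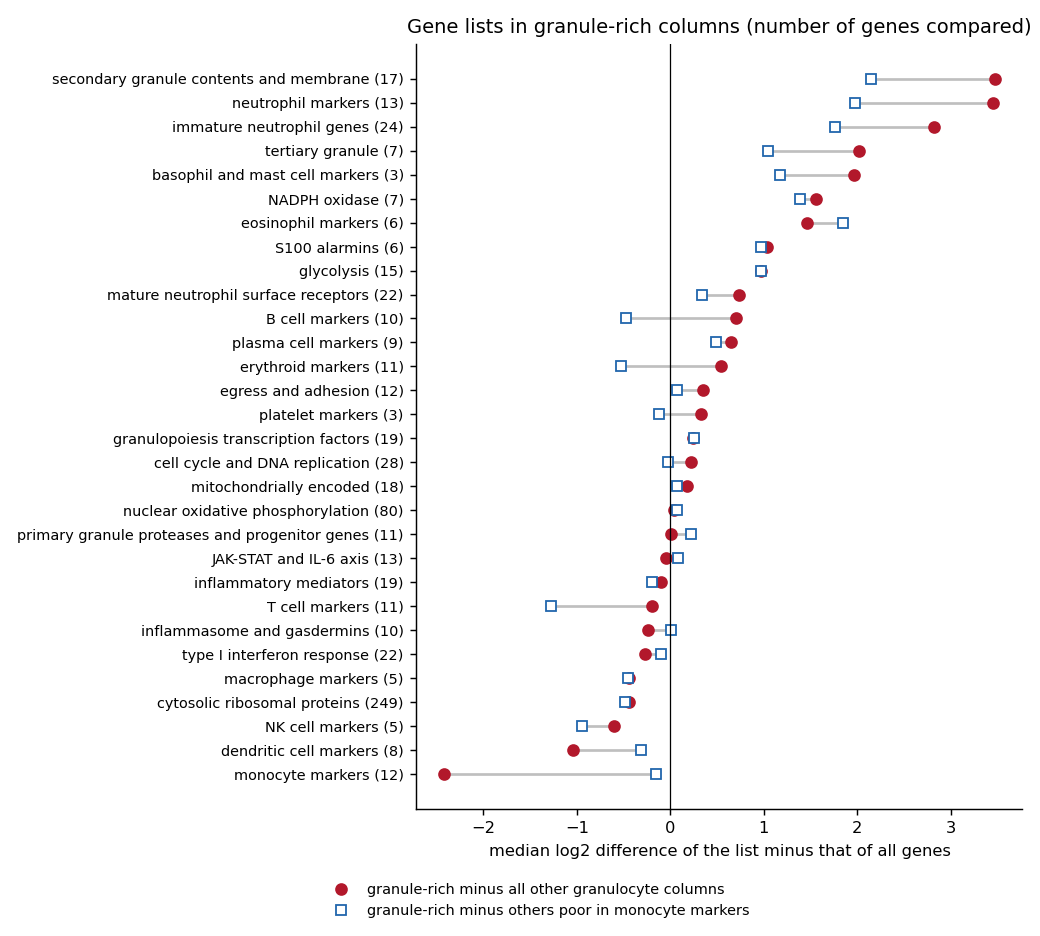
Median log2 difference of each of 30 gene lists between granule-rich and other granulocyte columns, minus the median of all genes (horizontal axis), with the number of genes compared in brackets. Filled circles use all other granulocyte columns and open squares those poor in monocyte markers. The secondary granule list stands at 3.47 and 2.14, and the monocyte list at -2.42 and -0.16. The columns behind the open squares were chosen by the monocyte markers, so the second monocyte value follows from that choice.

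Further lists are read beside all genes, of which 1.15% were called higher, 5.57% were called lower and 15.9% had a positive median difference. Relative to the median gene, the lists below stood at -0.27 (interferon), -0.10 (mediators), -0.45 (ribosomal), 0.97 (glycolysis), 0.35 (adhesion), -0.24 (inflammasome) and -1.05 (dendritic). Of 22 type I interferon response genes, 6 were called lower (Ifit3, Irf7, Slfn5, Ifi204, Usp18 and Stat2) and none higher, with a median of -0.97 beside -0.71 for all genes. Against monocyte-poor columns none of them was called, and with TMM factors none was called lower and Slfn4 was called higher. Irf7, a transcription factor of that response, averaged 89.8 ± 13.8 SPM in granule-rich and 276 ± 85.6 SPM in all other columns. Rsad2 (viperin, an antiviral enzyme) differed between mice more than between columns: it had 26.9, 29.7, 462, 760.3 and 95 SPM in granule-rich columns of arthritic mice 1, 3, 4, 5 and 6, against 87.6, 83.6, 519, 1222 and 202 SPM in the others. Mice 4 and 5 were high on both sides. Of 19 inflammatory mediators, G0s2, an inhibitor of lipolysis, was called higher (235 ± 51.7 SPM against 43.8 ± 14.7 SPM) and Il1b and Ptgs2 (cyclooxygenase 2) lower, of which only G0s2 was called with TMM factors. The list of cytosolic ribosomal proteins went by gene name and also holds the kinase gene Rps6kb2. Of its 249 genes compared, 21 were called lower and none higher. Most of the 21 are pseudogene or copy names whose reads cannot be told apart from their parent genes. With TMM factors 2 of these genes were called lower. Calls in the remaining lists were few: Hk3, a hexokinase, was the 1 called higher among 15 glycolysis genes, and Itga4, Itgb1 and Icam1 were lower among 12 egress and adhesion genes. Casp1, Aim2 and Il1b were lower among 10 inflammasome genes, and 4 of 8 dendritic cell markers (Flt3, H2-Aa, H2-Ab1 and Cd74) were lower. With TMM factors 4 glycolysis genes were higher, 1 adhesion gene and 1 dendritic marker were lower, and no inflammasome gene was called. Against monocyte-poor columns no glycolysis, inflammasome or dendritic gene was called. Of the adhesion genes only Itga4 was lower there, of the mediators only Ptgs2, and of 247 genes of the ribosomal list 5.

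The arthritic mice fell into different levels within the granule-rich columns, with no test among single mice. Mice 1 and 3, which shared many identical columns, had Fcnb at 2677 and 2726 SPM and Cebpe at 455 and 465 SPM, while mice 4, 5 and 6 had Fcnb at 1267, 999 and 822 SPM and Cebpe at 192, 212 and 175 SPM. Retnlg had the opposite order, with 2007 and 2579 SPM in mice 1 and 3 and 5161 to 6396 SPM in mice 4 to 6. The eosinophil granule gene Prg2 had 179.9 and 156 SPM in mice 1 and 3 and 2419, 1538 and 2102 SPM in mice 4, 5 and 6. Mmp8 (neutrophil collagenase) was highest in mouse 6, with 1998 SPM against 715 to 1179.5 SPM in the rest. Hemoglobin made up 0.581%, 0.739%, 30.1%, 51.2% and 2.35% of the pooled granule-rich signal of arthritic mice 1, 3, 4, 5 and 6, and its part in these differences was not tested.

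The 3 granule-rich columns of healthy mouse 2 were compared with those of arthritic mice by level only, because no second healthy mouse had any. Of these 3 columns 2 were identical to columns of arthritic mice. Pooled, S100a8 had 168000 SPM and Mmp8 1897 SPM, inside the arthritic ranges of 135900 to 235200 SPM and 715 to 1998 SPM. The 26 genes followed here include Ngp, Camp and Ltf, which chose the columns, and no share of all genes is given beside them. Their count is therefore a description, and nothing is read from it. For 18 of the 26 the pooled healthy value lay inside the range of the 5 arthritic mice. Below it were Cebpe (121 SPM in healthy mouse 2), Fcnb (605 SPM), Cd177 (404 SPM), Ly6g, Prtn3 and Csf3r, and above it were Ccr2 (202 SPM) and Mmp9 (525 SPM). Their total of 34808 signal, part of which is hemoglobin, limits all of these values.

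Levels within the granule-rich columns differed along the granule share, by which the columns were binned and to which Ngp, Camp and Ltf belong. In the bin of 2 to 3% and in that of 10 to 13%, the mean of the secondary granule gene Chil3 over arthritic mice was 716.5 and 5663 SPM, that of Lcn2 1429 and 4875 SPM and that of Cd177 363 and 1299 SPM. Of the immature neutrophil list, Cebpe had 136 and 461.7 SPM, Anxa1 1629.5 and 5092 SPM, and Ly6g 94.1 and 294 SPM in these bins. Retnlg had 6202 ± 1466 and 2608 ± 2973 SPM, Cxcr2 602 ± 285 and 269 ± 38.8 SPM, and Csf3r 92.5 ± 30.9 and 32.5 ± 5.97 SPM (SD over mice). Their means were lower at the high end. The receptor Fpr2 went the other way, with 167 and 380.2 SPM. Mmp8, a gene of the secondary granule list, was between 983 and 1286 SPM up to 10% and 445 SPM above it. Elane had 962 ± 967 SPM at 2 to 3%, 811 ± 889 SPM at 4 to 6%, 177 ± 98.8 SPM at 6 to 8% and 62.5 ± 14.8 SPM at 10 to 13%. The first of these bins rests on 4 mice and the last on 3 (mice with at least 5 columns), all of these genes come from the columns that were binned, and they were chosen after their values were seen. The bins do not hold the same mice, so in these means a change along the granule share and a change of mice cannot be told apart.

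**Figure D4:**
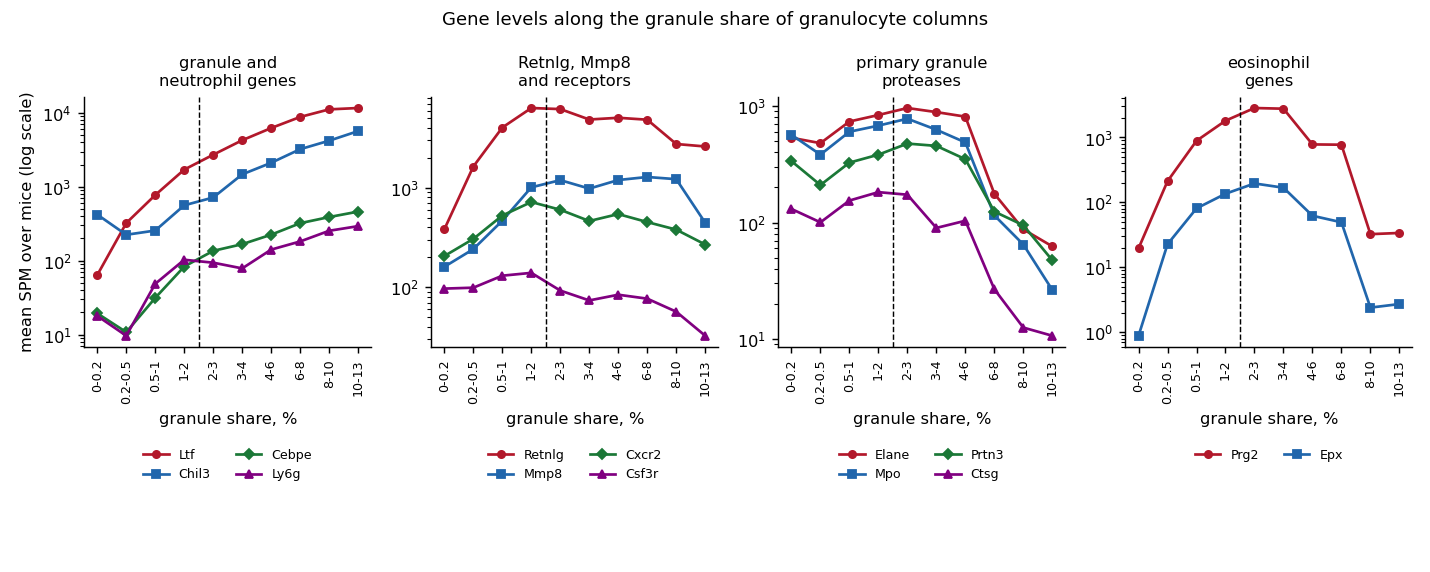
Mean level over arthritic mice (signal per 1000000 of non-hemoglobin signal, log scale) of 14 genes in 10 bins of granule share (percent, horizontal axis) over all granulocyte columns, for mice with at least 5 columns in a bin; the dashed line is the threshold of 2%. Right of the line Ltf, Chil3 and Cebpe climb, Csf3r falls to 32.5 in the last bin, and Elane and Prg2 are highest in the bin from 2 to 3%. The mice averaged differ between bins.

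To describe the variation inside the granule-rich columns, those of each arthritic mouse were split at that mouse's median granule share into strong and weak columns. Of 8473 genes compared, 4 were called higher in strong columns (0.0472%) and 178 lower (2.10%), by the same rule of 1 or more on the log2 scale in all 5 mice, and the median gene differed by -0.42. The split used these columns' own values, so nothing is read from the shares. The 4 higher genes, named although the naming rule does not reach them, were Tnfrsf23, AC140448.1, Tshr and Krt81, with means of at most 31.9 SPM in strong columns. With TMM factors the calls were 21 higher and 50 lower of 8267 genes. Without arthritic mouse 5, 8 were higher and 464 lower. Without mouse 4 there were 6 and 340, without mouse 6 there were 2 and 273, without mouse 1 there were 9 and 228, and without mouse 3 there were 10 and 218.

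Primary granule genes were lower in strong than in weak columns, and in mice 1 and 3 a few columns held most of their signal. Elane had 70.8, 54.2, 168, 227 and 27.6 SPM in strong columns of arthritic mice 1, 3, 4, 5 and 6, against 989.9, 839, 343, 583 and 182 SPM in weak columns. Mpo had 40.3, 33.4, 134, 192 and 62.1 SPM in strong columns, against 560.5, 465, 389.9, 454 and 193 SPM in weak ones. In each mouse the strong columns were lower, and mice 1 and 3 showed the widest gap for both genes. Of 11 primary granule genes 4 were called lower, Mpo, Elane, Prtn3 (proteinase 3) and Ctsg (cathepsin G), and none higher, with a median of -1.31 beside -0.42 for all genes. With TMM factors Mpo and Ctsg were called. Of the granule-rich columns 19, defined below by at least 5000 SPM of these 4 genes, all lay on the weak side, and they held 71.2%, 65.5%, 6.16%, 23.9% and 0% of the summed signal of the 4 genes in granule-rich columns of arthritic mice 1, 3, 4, 5 and 6. Without them, an alternative chosen after seeing the data, none of the 4 was called. Elane then had 217, 223, 319, 355 and 182 SPM in weak columns of arthritic mice 1, 3, 4, 5 and 6, still above the strong columns of each mouse but by 0.64 on the log2 scale in mouse 5. Prtn3 averaged 91.2 ± 49.6 SPM in strong and 336 ± 77.0 SPM in weak columns, and Ctsg 21.5 ± 22.4 SPM and 88.1 ± 30.6 SPM. Myc, a growth factor-responsive transcription factor, was also called lower (3.66 ± 2.34 SPM and 14.2 ± 3.46 SPM), and not without those 19 columns.

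Eosinophil granule genes were also lower in strong columns. Prg2 (major basic protein) had 20.5, 16.4, 1613, 762 and 20.7 SPM in strong columns of arthritic mice 1, 3, 4, 5 and 6, against 329.8, 283, 3282, 2417 and 3675 SPM in weak columns. Epx (eosinophil peroxidase) averaged 32.3 ± 47.6 SPM in strong and 137 ± 116 SPM in weak columns. Both were called, 2 of the 6 eosinophil markers compared, but neither with TMM factors, and mice 4 and 5 had Prg2 in strong columns as well. Without the 23 columns at 5000 SPM or more of Prg2 and Epx, Prg2 was still called (median -2.31) and Epx, Mpo and Prtn3 were not. In mouse 6, 1 such column held 98.3% of the pair's signal. Without it Prg2 had 20.7 SPM in strong and 59.5 SPM in weak columns of that mouse. Of 212 genes of the ribosomal list, which went by gene name, 13 were called lower, with a median of -1.20. Rpl35 and the copies Rpl36-ps10 and Rpl14-ps1 were among the 13, and 1 gene of the list was called with TMM factors. Rps19 averaged 1163 ± 398 SPM in strong and 2604 ± 190.3 SPM in weak columns. Ramp1, a coreceptor for neuropeptides, and Mrpl52, a mitochondrial ribosomal protein, were the other named genes called lower. Fcnb was not called and had both signs, at 1700.4 ± 717 SPM and 1671 ± 1193 SPM. None of 28 cell cycle genes was called, nor any of 17 secondary granule genes, of which TMM factors gave 4 as higher.

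Markers of other cells moved with the same split. The B cell markers had a median of -1.34, with none of 10 called, and Ighm had 93.8, 82.0, 369, 194 and 96.6 SPM in strong columns of arthritic mice 1, 3, 4, 5 and 6, against 2458, 1817, 332, 315 and 516 SPM in weak columns. Erythroid markers had a median of -1.18 and monocyte markers one of -1.13, with none called. The part of these cells in the strong and weak difference was not tested.

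Primary granule and eosinophil transcripts were unevenly spread over the columns. Summed Mpo, Elane, Prtn3 and Ctsg were at 0 in 19.8% of granule-rich columns, had a median of 216 SPM and reached 18555 SPM. Summed Prg2 and Epx were at 0 in 55.1% and reached 34163 SPM. With a limit of 5000 SPM, chosen after seeing the values, 19 columns were rich in the first set and 23 in the second, and no column passed both. The 19 columns (11, 5, 1, 2 and 0 in arthritic mice 1, 3, 4, 5 and 6) had a median total signal of 43752 and 7485 genes, against 13038 and 2658 in the 1005 columns rich in neither. Their median granule share was 3.72% and their highest 5.09%. The 23 eosinophil-rich columns (5, 2, 8, 7 and 1 in the same mice) had a median total of 21006, and 4188 genes. Among all other granulocyte columns 35 and 14 of 858 passed the 2 limits, and among common myeloid progenitor columns 26 and 1 of 193.

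At lower levels some columns held both, most of them in arthritic mouse 5. At a limit of 1000 SPM 182 columns passed for the primary granule genes, 182 for the eosinophil pair and 98 for both, which is 53.8% of each. Of these 98, 75 were columns of arthritic mouse 5 and 17 of mouse 4, while mice 1, 3 and 6 had 2, 2 and 1 and 1 column was from healthy mouse 2. The eosinophil pair reached 1000 SPM in 136 granule-rich columns of mouse 5 and in 12, 5, 27 and 1 of mice 1, 3, 4 and 6. Within mouse 5 the columns at 1000 SPM or more had a median hemoglobin share of 57.9% and a median granule share of 2.82%, against 46.7% and 4.99% in its remaining granule-rich columns. In mouse 4 the medians were 39.9% and 4.36%, against 28.8% and 5.73%. The part of hemoglobin and of total signal in these levels was not tested.

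**Figure D5:**
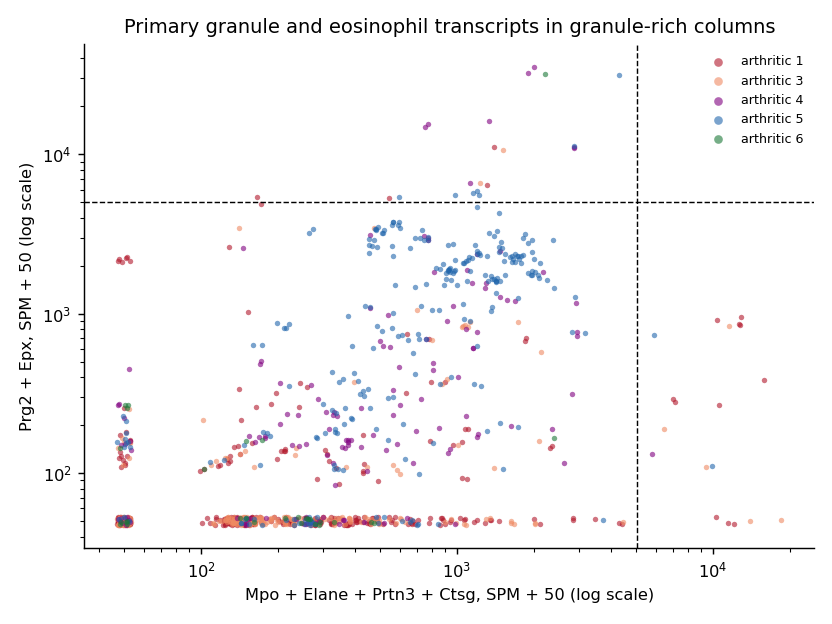
Summed Prg2 and Epx (vertical axis) against summed Mpo, Elane, Prtn3 and Ctsg (horizontal axis) in each granule-rich column of 5 arthritic mice, as signal per 1000000 of non-hemoglobin signal plus 50, both on log scales and with points shifted slightly so that equal values can be seen. Dashed lines stand at 5000 and the upper right field is empty.

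Signs of RNA content and quality differed between the 2 kinds of granulocyte columns. Thinned to 6000 signal, granule-rich columns showed medians of 1698, 1661, 1547, 1272 and 1735 genes in arthritic mice 1, 3, 4, 5 and 6, against 2698, 2756, 1959, 1363 and 2669 genes in other columns. Unthinned, the medians were 2769, 2743, 2566, 2736 and 2350 genes, against 3557, 3738.5, 2890, 2655.5 and 3275.5 genes. The thinned number was lower in granule-rich columns of all 5 mice, and the unthinned number in all but mouse 5. Mitochondrial transcripts made up a median 2.42%, 2.04%, 3.92%, 4.48% and 4.70% of their non-hemoglobin signal, against 3.85%, 3.82%, 7.59%, 7.23% and 7.95% in the other columns. The part of these measures in the gene differences was not tested.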

How the data were processed

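Blood of 9 mice was read out by Seq-Well. Per the labels' protocols, the authors followed the Drop-seq core computational protocol, and the submitters' processing notes name build GRCm38.p5. How cells were filtered and classes called is not stated in these sources. The authors deposited signal: unscaled whole numbers per gene and column, treated here as pooled signal because many columns are identical. Deposited class and mouse names were used. A second table, whose 8423 columns match no blood sample, was not used.

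Rows of 10 hemoglobin genes were left out of the total. Signal was summed per mouse and kind of column, scaled to 1000000 (SPM) and compared as log2(SPM + 1) in each mouse. Granule-rich and all other granulocyte columns were compared in mice with at least 20 columns on both sides. Against monocyte-poor columns the minimum was 5. Strong and weak columns were compared in all 5 arthritic mice, with 14 and 15 columns in mouse 6. Genes averaged 10 SPM or more on the higher side, and a call needed 1 or more on the log2 scale in every mouse. No p-value is given between columns that the rule sorted. Shares per mouse went into exact two-sided permutation tests (126 splits of the mice, smallest possible p 0.00794), adjusted by Benjamini-Hochberg over 3 measures at 0.05. Testing granule-rich columns of arthritic against healthy mice needed 2 mice a group with 3 such columns, and 1 healthy mouse had them, so no such test was run.

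Members and the 30 gene lists were chosen with earlier results of these data known. Named genes were the 5 markers, up to 15 called genes per direction (10 for strong against weak columns) with the largest median difference and a mean of 100 SPM or more, and up to 4 genes of each list. Other genes followed by mouse or bin, and the limits of 2000 and 5000 SPM, were chosen after their values were seen. Alternatives were other thresholds, scalings, pseudocounts and filters, and leaving out identical columns or mice. The gene comparison was tested on simulated data. Python 3.11.15 with numpy 2.4.6, pandas 2.3.3, scipy 1.17.1 and matplotlib 3.10.9 was used.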

Additional observations from a re-analysis of the deposited data

Results flagged for a closer look

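Healthy mouse 2 stood apart from the other healthy mice in each measure of granule-rich columns. They were 60.0% of its granulocyte columns and 1.49% of all its columns, where the 3 other healthy mice had 0%. The median granule share of its granulocyte columns was 3.23%, with the nearest healthy mouse at 0.303%. These values rest on 5 granulocyte columns.

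The difference of Epx between strong and weak granule-rich columns was -8.00 on the log2 scale in arthritic mouse 6, with the nearest mouse at -2.14 and the farthest at -1.12. Epx was at 0 SPM in the 14 strong columns of that mouse and at 255 SPM in its 15 weak columns, so the size depends on the pseudocount. It also rests on 1 weak column, which held 98.3% of the summed Prg2 and Epx signal of that mouse. Without that column Epx was at 0 SPM in its strong and its weak columns. In all, 58 groups of values were examined and 4 held such an extreme value; chance marks about 1 in 20.

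Outside the granulocyte class, 3 of 1301 columns named as B cells reached the threshold of 2% for Ngp, Camp and Ltf, the highest at 2.25%. No column of the 2 T cell classes did.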

How the results depend on the processing

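The share of all blood columns that were granule-rich differed by 26.9 percentage points between arthritic and healthy mice. Leaving out each mouse in turn moved that difference between 20.8 and 32.7 points and took the adjusted p above 0.05 each time (0.0804 to 0.161). The smallest raw p possible is 0.0286 with 1 arthritic mouse fewer and 0.0179 with 1 healthy mouse fewer. In both cases the adjusted p could reach 0.05 only together with another measure. The raw p of the exact permutation test was 0.0286 without any 1 arthritic mouse and 0.0536 without any 1 healthy mouse. Without arthritic mice 4 and 5, chosen after seeing the data for their hemoglobin, the difference was 21.4 points. Its adjusted p by the exact permutation test was 0.0857, with a smallest raw p of again 0.0286. Same-numbered mice are different animals, and their deviations from the group means correlated at -0.00328, -0.0452 and 0.189, so the numbers do not pair them. With a replicate block that paired mice 1, 3 and 4 by number anyway, the difference was 27.0 points (exact p = 0.25, the smallest 3 pairs allow), 63.5 points for the share of granulocyte columns and 4.91 points for the median granule share. The share of granulocyte columns and the median granule share did not pass the test in any setting, their differences ranging from 31.4 to 52.3 and from 1.70 to 3.52 points when 1 mouse was left out. Thresholds of 1%, 3% and 5%, hemoglobin in the total, and leaving out identical columns changed no call among these measures.

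Counts of called genes depended on the scaling and on the mice required. Between granule-rich and other columns the 113 higher and 547 lower genes became 275 and 149 with TMM factors, 277 and 149 with median-of-ratios factors, 63 and 150 with a pseudocount of 10, and 254 and 1951 with a difference of 0.5 on the log2 scale. Without arthritic mice 4 and 5 there were 222 and 2218, against monocyte-poor columns 74 and 176, with a threshold of 5% 1434 lower and with hemoglobin in the total 250 lower. Leaving out each arthritic mouse gave 120 to 166 higher and 610 to 1287 lower. Between strong and weak columns the 4 higher and 178 lower became 21 and 50 (TMM), 22 and 52 (median of ratios), 0 and 33 (pseudocount 10), 19 and 977 (without mice 4 and 5) and 2 and 89 (hemoglobin in the total). The higher count was 2 at a threshold of 3%, 13 at 5%, 0 with 1 column per identical set, 2 without columns identical to another mouse, 2 without the columns rich in eosinophil genes and 11 without a filter on low genes; leaving out each mouse gave 2 to 10 higher and 218 to 464 lower. A call over fewer mice is easier by construction, and the cause of the other changes was not tested. No called gene named by the rule changed direction in any of these settings.

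The median of the primary granule list between granule-rich and other columns, 0.00 relative to all genes, changed sign under several settings and is given without a direction. The planned comparison of arthritic with healthy granule-rich columns, with its weights, covariate and minimum of 1 or 5 columns, was not run for lack of healthy mice. Granule-rich columns of healthy mice number 3, which sets the main limit, and arthritic mouse 6 rests on 29.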
